A study of Mus musculus with 4 samples.

Results

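The nuclear genes of the respiratory chain and the ATP synthase were taken by name from 4 mouse testis libraries: every entry called NDUF with the letter A, B, C, S or V and a number, every UQCR entry, the SDHA to SDHD genes, and every ATP5 entry with a letter from A to O. That gave 65 of the 112302 entries in each library. By their known roles 35 belonged to complex I, 2 were NDUFA4 and its relative NDUFA4L2, 4 belonged to complex II, 8 to complex III and 16 to the ATP synthase. One of the 16, ATP5L2, has no annotated gene under that symbol and is listed by RefSeq as the pseudogene Atp5l2-ps, so 64 of the 65 had an annotated symbol. NDUFA4 was first described as a complex I subunit and was later assigned to cytochrome c oxidase (complex IV), so the pair is described apart from complex I.

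RNA was sequenced from whole testis of BALB/C mice, and each stage had 1 library: fetal testis of embryonic day 14 (E14), fetal testis of embryonic day 18 (E18), juvenile testis taken 3 weeks after birth, and adult testis of 6 months. The RNA was bought from a tissue supplier, and the labels do not say how many animals each sample holds. The animals carried no named allele and received no named treatment. The labels disagree on how RNA was selected: the description and design name ribosomal RNA depletion, whereas the molecule field and protocol also name poly(A) isolation.

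The respiratory chain moves electrons from NADH (complex I) or succinate (complex II) through ubiquinone to complex III and on to cytochrome c oxidase, pumping protons across the inner mitochondrial membrane, and the ATP synthase uses that proton gradient to make ATP. Apart from complex II, each of these enzymes mixes subunits encoded in the nucleus with subunits encoded in mitochondrial DNA. In testis, several parts of mitochondrial metabolism are known to exist as separate somatic and germ cell isoforms, and spermatocytes, spermatids, Sertoli cells and Leydig cells differ in how far they use respiration.

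Levels are given as RPKM, a read count divided by gene model length and by library total. Levels of different genes therefore also depend on the model lengths used. The reads behind the members came to 41914 at E14, 39844 at E18, 43668 after 3 weeks and 43765 after 6 months. These were 0.108%, 0.116%, 0.129% and 0.122% of the reads that scale each library, in the same order of stages. Reads are the smallest whole numbers that fit the RPKM values, so the true reads of an entry may be a multiple. Intervals in brackets are exact 95% intervals of the reads (Poisson for a level, Clopper-Pearson for a ratio) and cover counting error only. Since each stage had 1 library, there is no replicate check on any difference and no p-value: "higher" and "lower" describe these libraries. Differences are log2(RPKM + 1) at the later stage minus the earlier one, among the 42964 entries that reached 1 RPKM in any library. An entry was called at 2-fold, a difference of at least 1 in size. In what follows, past 2-fold means called in this way. With the 1 added, an entry can differ by more than 2-fold in plain RPKM without a call. The 1 RPKM filter was passed by 64 of the 65 members. ATP5G1, a subunit c gene with a model length of 4943 bases, was the member below it. It measured 0.806 RPKM at E14, 0.792 at E18, 0.655 after 3 weeks and 0.486 after 6 months.

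The libraries differed in the cells they held, so markers of testis cells and of other tissues are given as summed RPKM in the order E14, E18, 3 weeks and 6 months. The 13 spermatocyte markers summed to 2.75, 17.4, 789 and 471, and the 12 spermatid markers to 3.64, 4.53, 29.0 and 7069. The 10 Sertoli markers summed to 8.42, 115, 186 and 175, and the 8 Leydig markers to 8.46, 139, 71.9 and 579. Germ cell markers were thus low before birth, and the E14 library was also low in both somatic lists, with the Sertoli marker RHOX8 at 0. The spermatid marker ACRV1 was at 0 at E18. Markers of other tissues were high in the E14 library: skeletal muscle (10 genes) summed to 219, 47.7, 1.69 and 1.57, cartilage (8 genes) to 109.5, 4.21, 5.32 and 3.63, liver (8 genes) to 324, 77.3, 2.03 and 1.31, and neuron (8 genes) to 56.6, 9.08, 12.8 and 10.6. Erythroid genes (8) summed to 2000, 1491, 40.4 and 63.7. A sum can rest largely on 1 gene. HBA-A1 alone gave 1436 of the erythroid sum at E18, where the list median was 1.24, against 23.2 at E14. INSL3 alone gave 357 of the Leydig sum at 6 months. In the E18 library kidney tubule markers (7 genes) summed to 33.1, against 1.60 at E14, and bladder urothelium markers (6 genes) summed to 53.6, against 26.3 at E14. Both were at most 1.40 after birth. Epididymis markers (7 genes) summed to 66.6 at 3 weeks, against 1.28 at E18. Brown fat, a mitochondria-rich tissue, had 6 markers that summed to 2.78, 1.62, 5.89 and 5.59. The part of these tissues and cells in any result below was not tested, and in whole tissue fewer cells of a type and less RNA per cell cannot be told apart.

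In the deposited scaling the respiratory genes as a whole moved little in sum, while the shares of their complexes differed after birth. Summed over the 65 members, the level was 671 RPKM at E14, 734 at E18, 791 after 3 weeks and 768 after 6 months. Complex I entries summed to 245 RPKM at E14, 285 at E18, 427 after 3 weeks and 385 after 6 months. ATP synthase entries summed to 211 RPKM at E14, 210.3 at E18, 154 after 3 weeks and 143 after 6 months. Complex I therefore took 53.9% of the members' summed RPKM at 3 weeks, against 38.8% at E18, and the ATP synthase took 19.5%, against 28.6%. Complex III summed to 145, 151, 157 and 194 RPKM over the 4 stages, and complex II to 36.6, 42.6, 37.3 and 31.7.

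**Figure D1:**
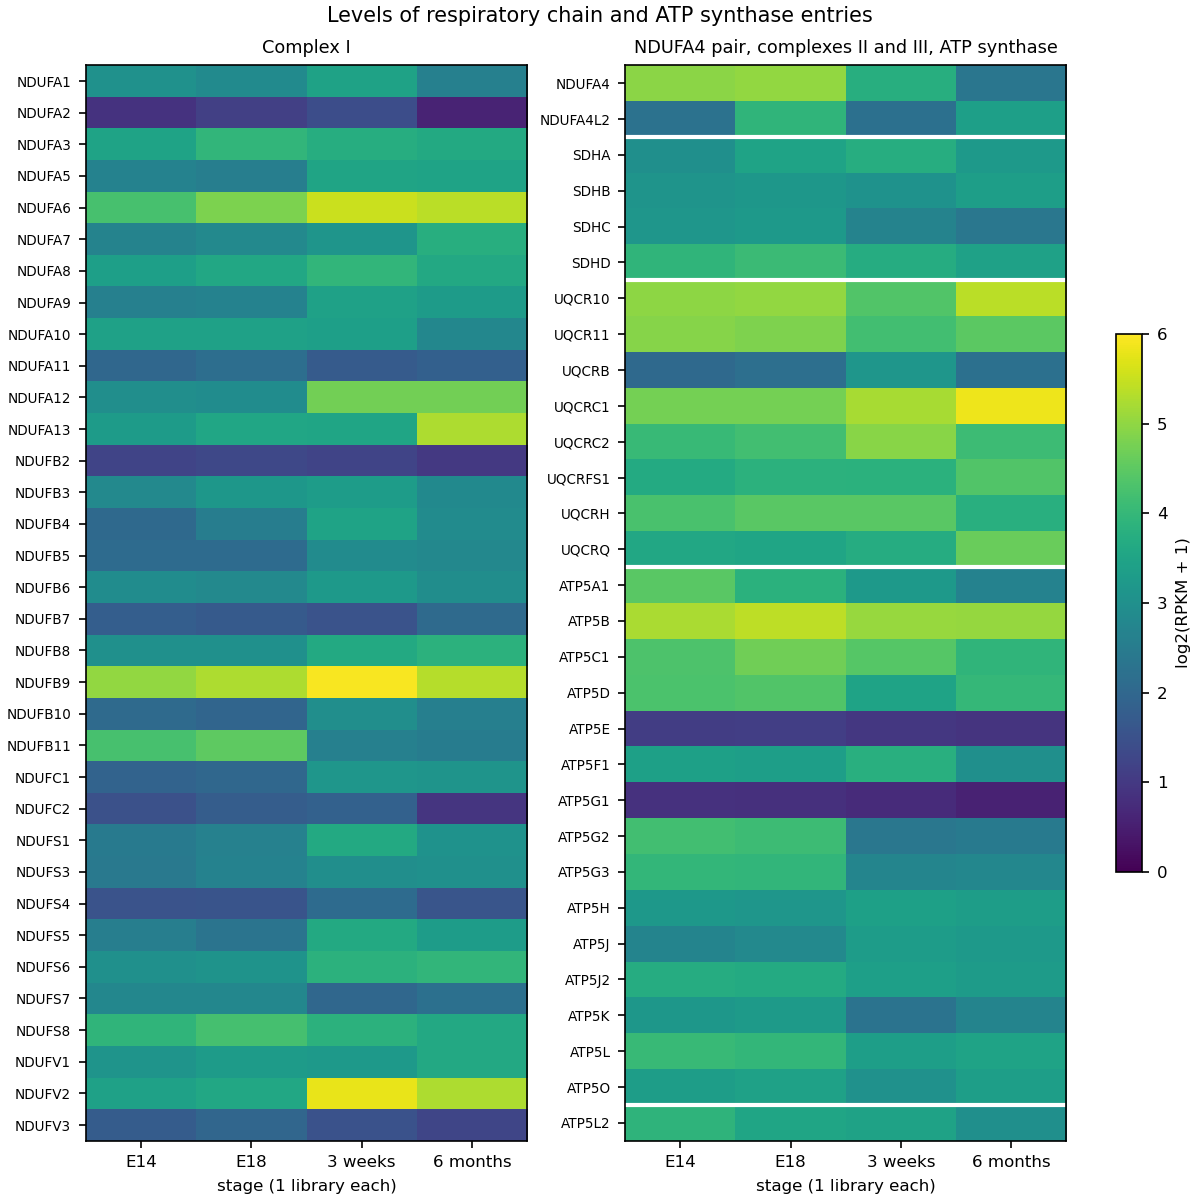
Each row is 1 of 64 members and each column 1 library, coloured by log2(RPKM + 1), with complex I on the left and the NDUFA4 pair, complexes II and III and the ATP synthase on the right, split by white lines. In complex I, the rows of NDUFV2, NDUFA12 and NDUFA6 are among those brighter in both libraries after birth than in both before it. The rows of NDUFB11, NDUFA4, ATP5G2 and ATP5G3 are brighter in both libraries before birth.

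A ratio of sums within a library does not depend on how whole libraries are scaled. The summed RPKM of complex I over that of the ATP synthase was 1.16 at E14, 1.35 at E18, 2.76 after 3 weeks and 2.69 after 6 months. The ratio of the 2 medians was 0.439 at E14, 0.540 at E18, 0.978 after 3 weeks and 0.926 after 6 months. When every member called in any comparison was left out, 27 complex I and 13 ATP synthase entries gave ratios of 1.18, 1.32, 2.15 and 1.96. Entries that differed by more than 2-fold in plain RPKM without a call, such as NDUFB4 and ATP5K, stayed in. The 16 complex I and 4 ATP synthase entries with neither a near-identical copy nor an overlapping exon gave 1.65, 1.83, 4.10 and 3.56. In all 4 forms both libraries after birth lay above both libraries before birth. On the log2 scale the median difference of complex I at 3 weeks against E18 exceeded that of the ATP synthase by 0.69, and by 0.66 to 0.89 over the 6 scalings of the libraries that were compared.

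**Figure D2:**
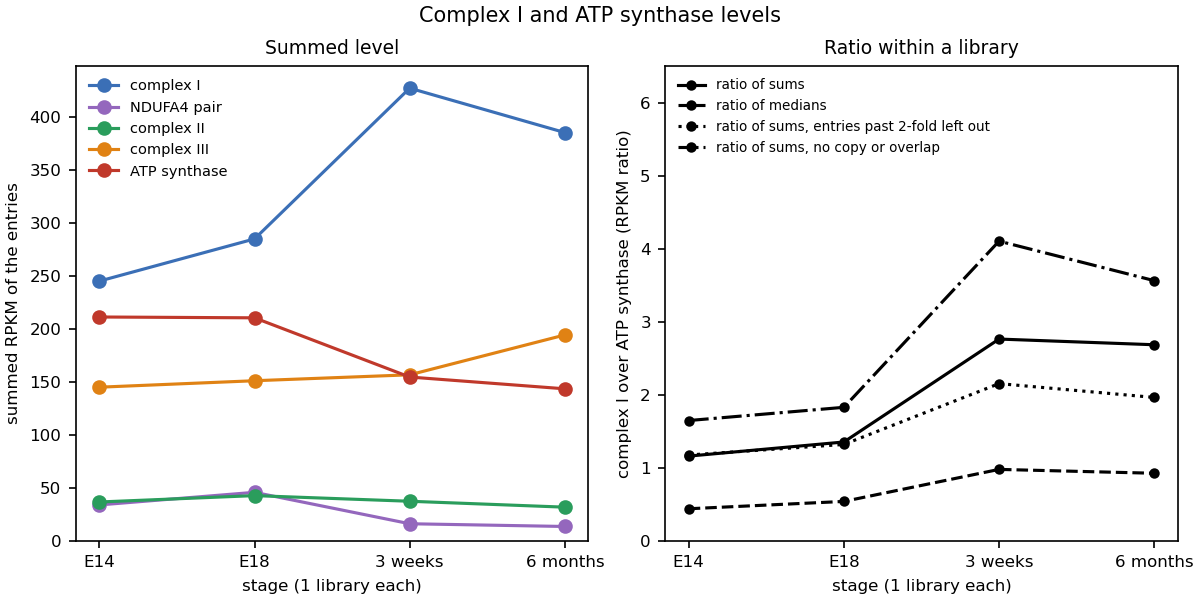
The left panel shows summed RPKM of the entries of each complex at the 4 stages, 1 library each, and the right panel the ratio of complex I to the ATP synthase within a library, computed in 4 ways. Every form of the ratio is higher at 3 weeks and 6 months than at E14 and E18 (1.16, 1.35, 2.76 and 2.69 for the sums).

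In the deposited scaling most members stayed within 2-fold over the 4 stages. As a ratio of plain RPKM, the highest level over the lowest among the 4 stages was under 2-fold in 39 members and at least 2-fold in 26. Of the 26, 5 reached 4-fold, and the median ratio of the 65 members was 1.94. The stage of the highest level was E14 for 9 members, E18 for 18, 3 weeks for 26 and 6 months for 12. Complex I supplied 20 of the 26 that were highest at 3 weeks. The ATP synthase had 7 of its 16 entries highest at E14, 6 at E18, 3 after 3 weeks and 0 after 6 months. Ranked by level, the 65 members kept much the same order between E18 and E14 (Spearman's rho 0.96) and less so at 3 weeks against E18 (0.67), 6 months against 3 weeks (0.83) and 6 months against E18 (0.65). The same rank correlations over 12661 protein-coding symbols were 0.89, 0.38, 0.76 and 0.15. These correlations are across genes of the same libraries, which share gene model lengths, so the genes are not independent replicates.

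Few members were called, and after birth their share was below that of other genes in the deposited scaling. At E18 against E14, 1 member was higher and 0 were lower, where 3.54% of protein-coding symbols were higher and 1.63% lower (2.17% and 1.34% of all entries). At 3 weeks against E18, 6 members were higher and 5 lower, which is 9.38% and 7.81% of the 64 measured. Among protein-coding symbols 24.1% were higher and 13.2% lower (32.0% and 10.5% of all entries). At 6 months against 3 weeks, 2 members were higher and 1 was lower, beside 9.54% of protein-coding symbols higher and 7.87% lower (9.73% and 14.1% of all entries). At 6 months against E18, 7 members were higher and 5 lower, beside 24.9% of protein-coding symbols higher and 19.0% lower (32.9% and 15.4% of all entries). These comparisons share libraries, so a call in one bears on the next. The members' median differences were 0.08, 0.05, -0.10 and -0.08 in the same order, beside 0.09, 0.23, -0.22 and -0.05 for protein-coding symbols and 0.03, 0.46, -0.31 and 0.20 for all entries.

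The counts depended on how libraries were scaled. At 3 weeks against E18, all called entries were higher in 75.2% of cases with the deposited values, against 47.8% when each library was rescaled without its 200 highest entries and 96.6% when rescaled to 34 ribosomal protein genes. Leaving out the 200 highest entries moved the median of all entries to -0.17 and the members' to -0.62, with 1 member higher and 22 lower. Scaling to ribosomal protein genes moved the median of all entries to 1.06 and the members' to 1.22, with 42 members higher and 0 lower. Of the ribosomal protein genes, 21 of 34 were lower at 3 weeks than at E18 in the deposited values, beside 13.2% of protein-coding symbols. The directions and calls below are those of the deposited scaling, and scalings that changed the sign of a called gene are given beside it.

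**Figure D3:**
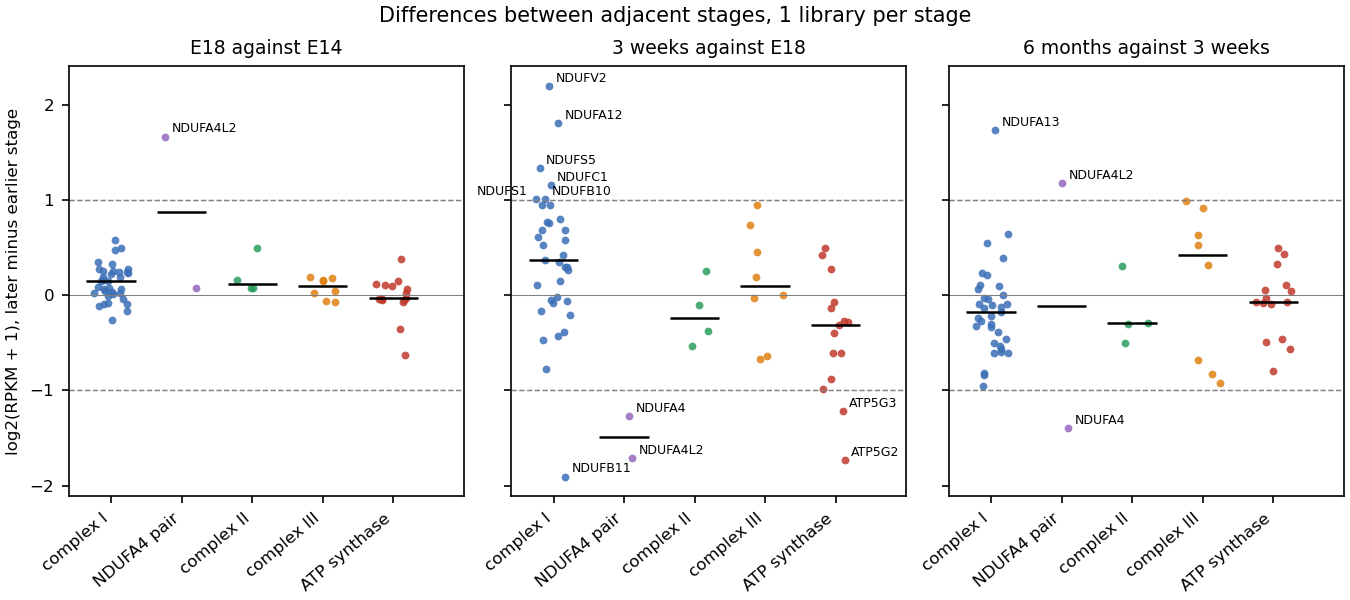
Each point is 1 measured member, placed by complex, with the difference in log2(RPKM + 1) of the later minus the earlier stage on the y axis. Black bars are medians, dashed lines mark a difference of 1 in size, the limit of a call, and members past it are named. At 3 weeks against E18 the complex I median is 0.37 and the ATP synthase median -0.31, both in the deposited scaling: the first is -0.41 without the 200 highest entries and the second 0.65 when scaled to ribosomal protein genes.

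Complex I held all 6 members called higher at 3 weeks against E18. They were 17.1% of its 35 entries, beside 24.1% of protein-coding symbols, and 1 of the 35 was called lower (2.86%, beside 13.2%). The catalytic core of complex I has an NADH-oxidising arm and a quinone-reducing arm. NDUFV2, an iron-sulfur subunit of the NADH-oxidising arm, had the largest difference of any member at 3 weeks against E18. It measured 9.86 RPKM at E14, 11.1 at E18, 54.6 after 3 weeks and 37.3 after 6 months. Both libraries after birth were well above both before birth. The 3-week level was 4.91 times the E18 level (4.54 to 5.32), a log2 difference of 2.20, which was past 2-fold under every scaling. NDUFS1, the largest core subunit and a carrier of iron-sulfur clusters, measured 4.42, 5.18, 11.4 and 7.39 RPKM over the 4 stages. It was just past the limit at 3 weeks against E18, with a log2 difference of 1.01 and a ratio of 2.20 (2.02 to 2.41). NDUFV1, which binds the flavin and NADH beside them, measured 7.56, 8.76, 8.33 and 11.2 RPKM, a difference of -0.07 at 3 weeks against E18. The 3 subunits of 1 arm were therefore unequal: NDUFV2 over NDUFV1 was 1.30 at E14, 1.27 at E18, 6.55 after 3 weeks and 3.32 after 6 months.

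In the quinone-reducing arm, the core subunits NDUFS3, NDUFS7 and NDUFS8 were not called in any comparison. NDUFS3 measured 4.34 RPKM at E14, 5.34 at E18, 6.76 after 3 weeks and 7.12 after 6 months. NDUFS7 measured 5.90, 5.87, 3.02 and 3.64 RPKM over the 4 stages, and NDUFS8 14.1, 17.9, 13.5 and 11.3. At 3 weeks against E18 they differed by 0.29 (NDUFS3), -0.77 (NDUFS7) and -0.39 (NDUFS8).

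Of the 28 supernumerary subunits, which surround the core without taking part in catalysis, 4 were higher and 1 lower at 3 weeks against E18, below the 24.1% and 13.2% of protein-coding symbols. NDUFA12, a subunit of the peripheral arm related in sequence to the assembly factor NDUFAF2, measured 6.78 RPKM at E14, 6.59 at E18, 25.6 after 3 weeks and 25.5 after 6 months. Its 3-week level was 3.89 times the E18 level (3.42 to 4.43), a log2 difference of 1.81, which was 0.93 when libraries were scaled without the 200 highest entries. NDUFS5, a disulfide-bonded subunit facing the intermembrane space, measured 4.90, 3.94, 11.4 and 8.96 RPKM. Its difference was 1.33 with a ratio of 2.90 (2.14 to 3.98), the widest interval of the 6. This interval rests on the smallest whole reads that fit, 167 at 3 weeks and 58 at E18. They go with a model length of 430 bases, against 860 bases of annotated exon, so the true reads may be a multiple. The interval would then be narrower. NDUFC1, a small subunit of the membrane arm, measured 2.76, 2.98, 7.89 and 7.67 RPKM and differed by 1.16. NDUFB10, also of the membrane arm, measured 3.21, 2.88, 6.82 and 4.98 RPKM and differed by 1.01. All 4 kept a positive difference under every scaling, but several calls were lost. Without the 200 highest entries NDUFS5 stood at 0.51, NDUFC1 at 0.37 and NDUFB10 at 0.24. Scaled over protein-coding genes, NDUFC1 stood at 0.84 and NDUFB10 at 0.70. NDUFS1 stood at 0.17 and 0.67 under the same settings. Just short of the limit stood NDUFB4 and NDUFA5, each with a difference of 0.95, although their plain RPKM ratios were 2.13 and 2.11.

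NDUFB11 went the other way. This supernumerary subunit of the membrane arm is X-linked (chrX:20615326-20617619, minus strand, GRCm38) and measured 18.1 RPKM at E14, 21.8 at E18, 5.09 after 3 weeks and 4.71 after 6 months. Both libraries before birth were above both after birth. Its 3-week level was 0.23 times the E18 level (0.20 to 0.28), a log2 difference of -1.90 that stayed negative under every scaling, at -0.65 when scaled to ribosomal protein genes. The other X-linked member, NDUFA1, a small subunit needed for assembly of the membrane arm, measured 7.18, 6.27, 9.90 and 5.09 RPKM. Its difference at 3 weeks against E18 was 0.58, so the 2 X-linked members did not move alike. The median difference of 509 measured X-linked protein-coding symbols was -0.17 at 3 weeks against E18, beside 0.23 for all protein-coding symbols.

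NDUFB9 and NDUFA6 were among the 3 highest complex I entries at every stage, and both are of the LYR family of small mitochondrial proteins. NDUFB9 measured 31.4 RPKM at E14, 37.5 at E18, 60.9 after 3 weeks and 39.5 after 6 months. NDUFA6 measured 17.9, 27.4, 44.8 and 40.9 RPKM. Neither reached 2-fold between adjacent stages, and NDUFA6 had the largest difference of any complex I member at E18 against E14 (0.58). NDUFA2 was the lowest complex I entry at E14, E18 and 6 months, with 0.854, 1.21, 1.66 and 0.51 RPKM over the 4 stages.

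**Figure D4:**
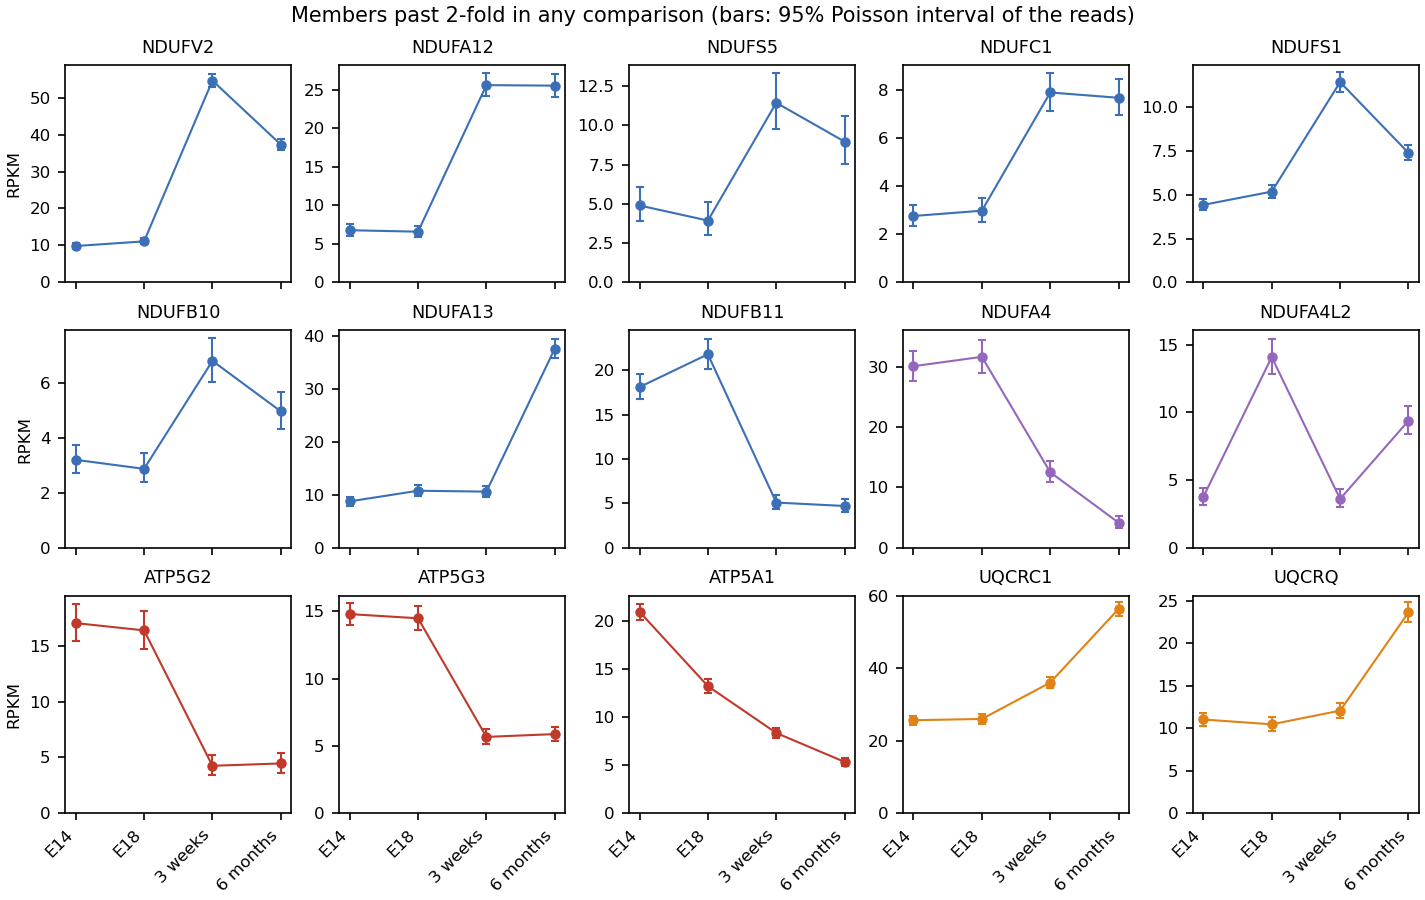
Each panel shows 1 member that was called in at least 1 comparison, as RPKM at the 4 stages with exact 95% Poisson intervals of the reads (y axes start at 0 and differ between panels). NDUFV2, NDUFA12 and NDUFC1 are higher in both libraries after birth, NDUFB11, ATP5G2 and ATP5G3 are lower in both in the deposited scaling, NDUFA13 is high at 6 months alone, and NDUFA4L2 is high at E18 and 6 months.

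At 6 months against 3 weeks the complex I member past the limit was NDUFA13, also known as GRIM-19, a membrane-spanning supernumerary subunit. It measured 8.75 RPKM at E14, 10.8 at E18, 10.6 after 3 weeks and 37.6 after 6 months, so the adult library stood apart from the other 3. The 6-month level was 3.55 times the 3-week level (3.20 to 3.95), a log2 difference of 1.74. NDUFA13 (chr8:69894180-69902558, minus strand, GRCm38) shares 375 exon bases with Tssk6, a testis-specific serine kinase gene of late spermatids on the opposite strand. Tssk6 measured 0.520 RPKM at E14, 0.635 at E18, 0.221 after 3 weeks and 100.2 after 6 months. Reads spread evenly along Tssk6 would place 1346 reads on the shared bases at 6 months, where NDUFA13 was credited with 1681 reads in all, against 449 at 3 weeks. How strand was used in counting is not given in the sources used here, so reads of the 2 genes cannot be told apart in these values. Among the other called members, over partners with a listed value, the largest such figure was 42.7 reads, for Haus1 on ATP5A1 at 6 months. Ino80dos, which shares 489 exon bases with NDUFS1, had no value to use here.

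NDUFA4 and NDUFA4L2, close relatives of which the second is known as a hypoxia-induced gene, differed in opposite directions at 6 months against 3 weeks. NDUFA4 measured 30.1 RPKM at E14, 31.7 at E18, 12.5 after 3 weeks and 4.14 after 6 months. It was the only member called lower both at 3 weeks against E18 (-1.27, ratio 0.40, 0.34 to 0.46) and at 6 months against 3 weeks (-1.39, ratio 0.33, 0.25 to 0.43). Scaling to ribosomal protein genes gave 0.040 for the first of these differences. NDUFA4L2 measured 3.76, 14.1, 3.61 and 9.39 RPKM. It was the member called at E18 against E14 (1.66, ratio 3.75, 3.10 to 4.56), it was lower at 3 weeks against E18 (-1.71) and higher at 6 months against 3 weeks (1.17). NDUFA4 over NDUFA4L2 was 8.004 at E14, 2.25 at E18, 3.47 after 3 weeks and 0.44 after 6 months, so NDUFA4L2 was the higher of the pair in the adult library. NDUFA4L2 was high in the libraries with the highest Leydig marker sums (139 RPKM at E18 and 579 at 6 months). INSL3 alone gave 357 of the 579, and the median Leydig marker was 15.7 RPKM at E18 and 16.2 at 6 months. At E18 kidney tubule markers were also high (33.1). The part of Leydig or kidney cells in the NDUFA4L2 level was not tested.

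Complex II, which is also the succinate dehydrogenase of the citric acid cycle, had 0 of 4 members called in any comparison. SDHA, the flavoprotein subunit, measured 6.94 RPKM at E14, 10.2 at E18, 12.3 after 3 weeks and 8.40 after 6 months. SDHB, the iron-sulfur subunit, measured 7.54, 7.99, 7.34 and 9.33 RPKM. The membrane anchors were lower after birth within 2-fold, with SDHC at 7.83, 8.32, 5.42 and 4.203 RPKM and SDHD at 14.3, 16.1, 12.2 and 9.81 RPKM. At 6 months against E18 the anchors differed by -0.84 (SDHC) and -0.66 (SDHD), against -0.25 and 0.20 for SDHA and SDHB.

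Complex III had no member called between adjacent stages and 2 of 8 called higher at 6 months against E18 (25.0%, beside 24.9% of protein-coding symbols). Neither was called when libraries were scaled over protein-coding genes or without the 200 highest entries. UQCRC1, a core protein, measured 25.7 RPKM at E14, 26.0 at E18, 36.1 after 3 weeks and 56.5 after 6 months and was the most abundant of all 65 members in the adult library. Its 6-month level was 2.17 times the E18 level (2.04 to 2.31), a difference of 1.09. UQCRQ, a small ubiquinone-binding subunit, measured 11.0, 10.5, 12.1 and 23.6 RPKM and differed by 1.11. The partner core protein UQCRC2 peaked at 3 weeks, with 15.4, 17.2, 29.4 and 16.2 RPKM, and UQCRC1 over UQCRC2 was 1.66, 1.51, 1.23 and 3.49. Pdzd9, on the opposite strand and sharing 504 exon bases with UQCRC2, would place 313 reads on the shared bases at 3 weeks at even coverage, of 2545 credited to UQCRC2. UQCRFS1, the Rieske iron-sulfur subunit, measured 11.7, 13.5, 13.3 and 19.6 RPKM.

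The 5 small subunits of complex III did not move together. UQCR10 measured 30.6 RPKM at E14, 31.4 at E18, 19.8 after 3 weeks and 40.4 after 6 months. UQCRB measured 3.11, 3.60, 7.87 and 3.67 RPKM, the reverse order of high and low after birth. UQCR11 measured 28.9, 27.7, 17.0 and 21.5 RPKM, and UQCRH 18.4, 21.0, 21.0 and 12.8. At 6 months against 3 weeks the complex's differences ran from -0.93 (UQCRB) to 0.99 (UQCR10), both just short of the limit, with a median of 0.42 that was positive under every scaling. In plain RPKM both differed by more than 2-fold, with ratios of 0.47 (0.37 to 0.59) and 2.03 (1.80 to 2.30). The UQCRB ratio at 3 weeks against E18 was 2.18 (1.73 to 2.77), also without a call.

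In the ATP synthase, the subunit c genes ATP5G2 and ATP5G3, which make the c ring, were lower after birth in the deposited scaling, but not throughout when libraries were scaled to ribosomal protein genes. This rotor in the membrane is built from subunit c, which 3 nuclear genes encode as the same mature protein. ATP5G2 (chr15:102662864-102672352, minus strand, GRCm38) measured 17.0 RPKM at E14, 16.4 at E18, 4.23 after 3 weeks and 4.45 after 6 months. ATP5G3 (chr2:73908447-73911326, minus strand, GRCm38) measured 14.8, 14.5, 5.66 and 5.87 RPKM. For both genes the libraries before birth were the high pair and those after birth the low pair. At 3 weeks against E18, ATP5G2 differed by -1.73 (ratio 0.26, 0.20 to 0.33) and ATP5G3 by -1.22 (ratio 0.39, 0.35 to 0.44). With libraries scaled to ribosomal protein genes the values were -0.50 for ATP5G2 and 0.023 for ATP5G3, and at 6 months against E18 they were 0.063 and 0.59. The 3 subunit c genes summed to 32.6 RPKM at E14, 31.7 at E18, 10.5 after 3 weeks and 10.8 after 6 months. ATP5G1 supplied 6.21% of that sum at 3 weeks, against 2.47% at E14. RPKM divides reads by model length, which was 4943 bases for ATP5G1, 647 for ATP5G2 and 2181 for ATP5G3. The shares depend on those lengths, and by reads the 3 genes held 155, 429 and 1255 at E14.

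Levels in the catalytic head differed by subunit. ATP5B, the beta subunit, was the highest ATP synthase entry at every stage, with 36.9 RPKM at E14, 41.0 at E18, 32.8 after 3 weeks and 32.0 after 6 months. ATP5A1, its alpha partner, measured 20.9, 13.2, 8.32 and 5.31 RPKM, lower at each later stage. It was past 2-fold at 6 months against E18 (-1.17, ratio 0.40, 0.37 to 0.44), a difference of 0.57 when scaled to ribosomal protein genes. ATP5B over ATP5A1 was 1.76, 3.10, 3.94 and 6.03 over the 4 stages, although the enzyme holds the subunits in equal number. ATP5C1, the gamma subunit of the central stalk, measured 18.9, 24.9, 20.3 and 14.2 RPKM, and ATP5D, the delta subunit, 18.7, 19.7, 10.3 and 14.9. ATP5E, the epsilon subunit, was low throughout in RPKM, with 1.11, 1.15, 0.956 and 0.859 over a model length of 1756 bases.

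The peripheral stalk, which holds the head still, had 3 of 4 subunits with small positive differences at 3 weeks against E18. ATP5F1 measured 9.55, 9.27, 12.8 and 6.91 RPKM, ATP5J 5.50, 6.08, 8.95 and 8.40, and ATP5H 8.14, 7.86, 9.71 and 9.17. ATP5O measured 9.07, 9.80, 7.18 and 9.26 RPKM. None of the 4 was called in any comparison. ATP5F1, ATP5H and ATP5O have the near-identical processed pseudogenes Gm12231, Gm10250 and Gm5436, listed with 28.6, 26.2 and 23.3 RPKM at E18. These copies differed by 0.54, 0.40 and -0.33 at 3 weeks against E18. How reads were shared between gene and copy is not known, so the levels of these members are uncertain. The membrane subunits ATP5J2, ATP5K and ATP5L had differences of -0.28, -0.99 and -0.61 at 3 weeks against E18, and ATP5K, with 8.05, 8.68, 3.87 and 5.58 RPKM, was the nearest to the limit.

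Near-identical copies bear on some of these values, because the authors' handling of reads that match 2 places is not given in the sources used here. A copy of at least 95% identity over at least 200 bases was found for 16 members and none for 49. The 49 include ATP5L2, which was not searched, and Atp5l2-ps is 99.4% identical to ATP5L over 312 bases. Exon bases were shared with another gene in 25 members. Besides the members named below, copies were found for ATP5C1, ATP5F1, ATP5H, ATP5K, ATP5L, ATP5O, NDUFB3, NDUFB4, NDUFS3, NDUFS6 and UQCRB. NDUFA12 has the processed pseudogene Gm15920, identical over 99.5% of 402 bases, which was listed with 17.3 RPKM at E14, 18.02 at E18, 60.1 after 3 weeks and 65.0 after 6 months. Member and copy were both higher in the libraries after birth than in those before it, and their summed reads, scaled to the total of the library as RPM, were 16.0, 16.0, 58.3 and 60.2. For NDUFB11 and Gm6444 the sum was 24.8, 30.6, 6.45 and 6.76 RPM. ATP5G2 and Gm10231, which is identical over all 441 aligned bases, summed to 26.0, 25.8, 5.89 and 6.70. NDUFS5 and BC002163 summed to 6.99, 8.03, 18.1 and 13.3, which may be too low because the NDUFS5 reads are the smallest that fit. At 3 weeks against E18 the copies differed by 1.68 (Gm15920), -2.30 (Gm6444), -2.06 (Gm10231) and 0.95 (BC002163), each with the sign of its member. Adding the copy therefore could not move 3 weeks to the other side of E18. Reads that match both entries may also be counted in each. ATP5G1 has a copy of 99.8% identity, Gm10039, listed with 10.7, 10.5, 4.52 and 7.38 RPKM, so the low ATP5G1 values are uncertain. Among the 31 members with neither a copy nor an overlap, 3 were higher (NDUFV2, NDUFC1 and NDUFB10) and 2 lower (NDUFA4 and ATP5G3) at 3 weeks against E18.

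**Figure D5:**
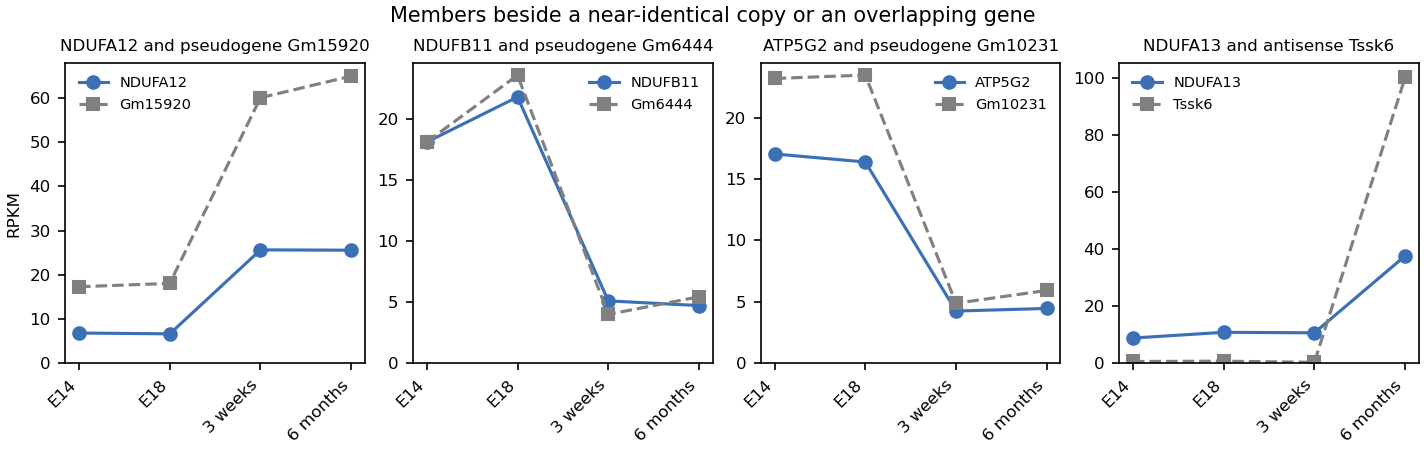
RPKM at the 4 stages of 3 members beside a near-identical processed pseudogene, and of NDUFA13 beside Tssk6 on the opposite strand (y axes start at 0 and differ between panels). The pseudogene values share the direction of the member at 3 weeks against E18 in all 3 panels, and both NDUFA13 (37.6) and Tssk6 (100.2) are highest at 6 months.

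Promoters were read for the 54 of 65 members that RefSeq's table of the GRCm38.p6 build matched by symbol, as 300 bases from 250 before to 50 after the start. The motif of NRF1, a regulator known for respiratory genes, was searched as GCGCANGCG on both strands and was present in 19 of 54 members (35.2%), beside 9.63% of 17492 protein-coding genes in the table. It was in 7 of 14 ATP synthase members and 8 of 31 complex I members. Among members past 2-fold at 3 weeks it was in 2 of 5 higher (NDUFB10 and NDUFS5) and 2 of 4 lower (ATP5G2 and ATP5G3) with a matched promoter. The ETS-family motif CCGGAAG, bound by the respiratory regulator GABPA among others, was in 13 of 54 members (24.1%), beside 12.9%. The YY1 motif AAGATGGCG was in 7 members (13.0%), 5 of them of complex I, beside 2.14%, and the cAMP response element TGACGTCA was in 4 (7.41%), beside 2.54%. The RFX motif GTTGCCNNG was in 1 member (1.85%), beside 5.80%, and the MYB motif CAGTTG was in 6 (11.1%), beside 14.2%. Each comparison share is over the same protein-coding genes, and a gene can hold several motifs. A match describes letters in this window and not a bound site.

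Upstream stretches free of annotated exons are shown for NDUFV2, with the largest difference at 3 weeks, NDUFS5, called higher with an NRF1 match, NDUFA4 and ATP5G3, called lower, and ATP5H, an ATP synthase gene with an NRF1 match and no call. All 5 genes lie on the minus strand, the sequences run 5′ to 3′ on the strand of the gene, and capitals mark the NRF1 motif. The NDUFV2 stretch is chr17:66101560-66101809 and that of NDUFS5 is chr4:123718203-123718436. The NDUFA4 stretch is chr6:11907498-11907700, that of ATP5G3 is chr2:73911327-73911576 and that of ATP5H is chr11:115419963-115420127. The motif begins 98 bases before the start in NDUFS5 and 141 before it in ATP5H, and the ATP5G3 match lies outside the stretch shown.
NDUFV2: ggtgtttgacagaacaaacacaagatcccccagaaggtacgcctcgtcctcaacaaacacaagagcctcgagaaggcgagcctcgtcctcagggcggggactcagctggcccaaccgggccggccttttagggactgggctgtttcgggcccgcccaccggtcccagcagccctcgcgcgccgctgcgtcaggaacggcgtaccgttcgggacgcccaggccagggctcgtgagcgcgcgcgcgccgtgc
NDUFS5: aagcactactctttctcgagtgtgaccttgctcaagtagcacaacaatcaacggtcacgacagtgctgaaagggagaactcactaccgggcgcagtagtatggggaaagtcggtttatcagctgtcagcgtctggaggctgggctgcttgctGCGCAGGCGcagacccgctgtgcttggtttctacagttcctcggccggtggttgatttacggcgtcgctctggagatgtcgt
NDUFA4: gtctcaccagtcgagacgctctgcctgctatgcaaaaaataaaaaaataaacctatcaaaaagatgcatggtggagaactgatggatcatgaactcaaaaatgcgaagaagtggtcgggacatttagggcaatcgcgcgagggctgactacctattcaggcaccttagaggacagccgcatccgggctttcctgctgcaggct
ATP5G3: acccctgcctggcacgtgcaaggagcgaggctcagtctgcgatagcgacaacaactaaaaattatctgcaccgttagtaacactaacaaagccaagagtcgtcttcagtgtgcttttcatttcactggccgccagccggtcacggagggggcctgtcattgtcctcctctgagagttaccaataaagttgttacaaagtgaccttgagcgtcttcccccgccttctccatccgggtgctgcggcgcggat
ATP5H: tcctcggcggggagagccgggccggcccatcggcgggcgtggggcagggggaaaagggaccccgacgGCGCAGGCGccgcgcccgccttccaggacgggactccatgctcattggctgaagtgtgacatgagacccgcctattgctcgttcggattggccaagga

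Genes that assemble these enzymes, or regulate them, were described in the same way. Of 25 listed assembly factors 20 were measured, and 5 were higher and 0 lower at 3 weeks against E18 (25.0% and 0%, beside 24.1% and 13.2% of protein-coding symbols), with a median difference of 0.43 that was -0.18 when libraries were scaled without the 200 highest entries. NDUFAF3, an early complex I assembly factor, measured 1.90 RPKM at E14, 1.40 at E18, 27.8 after 3 weeks and 57.9 after 6 months. UQCC2, needed for complex III assembly, measured 8.08, 6.42, 36.8 and 58.9 RPKM. NDUFAF2, the factor related to NDUFA12, measured 4.08, 4.86, 22.4 and 15.4 RPKM, and its difference of 2.00 stood beside 1.81 for NDUFA12. The other 2 were NDUFAF1 (1.02) and NDUFAF7 (1.18). Of 6 subunits that the naming rule leaves out, 1 was higher at 3 weeks (16.7%, beside 24.1% of protein-coding symbols). It was ATP5S (3.18 RPKM, against 0.608 at E18). CYC1, the cytochrome c1 of complex III, measured 15.6, 16.2, 7.66 and 7.54 RPKM and was called lower at 6 months against E18 (-1.01). Of 12 listed regulators 9 were measured, of which 1 was higher at 3 weeks, TFB1M (8.65 RPKM, against 2.21 at E18), and 1 at 6 months against 3 weeks, TFAM (3.32 RPKM, against 0.996 at 3 weeks). TFAM packages mitochondrial DNA and starts its transcription. Among protein-coding symbols 24.1% were higher at 3 weeks against E18 and 9.54% at 6 months against 3 weeks.

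The enzymes' other subunits come from mitochondrial DNA. The 13 mitochondrially encoded genes summed to 2789 RPKM at E14, 3972 at E18, 10270.4 after 3 weeks and 2534 after 6 months, and 10 of 13 were higher at 3 weeks against E18, or 4 of 13 when scaled without the 200 highest entries. All 13 were lower at 6 months against 3 weeks. In the deposited scaling 24.1% of protein-coding symbols were higher at 3 weeks against E18. At 6 months against 3 weeks 7.87% of protein-coding symbols were lower. Their sum over that of the nuclear members was 4.15 at E14, 5.41 at E18, 13.0 after 3 weeks and 3.30 after 6 months, so nuclear and mitochondrial parts did not keep a fixed ratio. Of the 19 measured nuclear genes of cytochrome c oxidase and cytochrome c, 5 were higher and 3 lower at 3 weeks against E18. These shares, 26.3% and 15.8%, were near the 24.1% and 13.2% of protein-coding symbols. COX7B2, a testis isoform, measured 100.8 RPKM at 3 weeks, against 0.269 at E18, while COX8A, the general isoform, measured 11.7 RPKM at 3 weeks, against 62.7 at E18. The log2 differences were 6.33 and -2.33, beside 2.20 and -1.90 for the largest among the 65 members.

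Set against E18, the adult library kept the pattern of 3 weeks in part. Of the 7 members higher at 6 months, NDUFV2 (1.66), NDUFA12 (1.81), NDUFC1 (1.12) and NDUFS5 (1.01) were among the 6 called at 3 weeks, and NDUFA13 (1.71), UQCRQ (1.11) and UQCRC1 (1.09) were not. NDUFS1 and NDUFB10 stood at 0.44 and 0.62. Of the 5 lower, NDUFA4 (-2.67), NDUFB11 (-2.00), ATP5G2 (-1.67) and ATP5G3 (-1.17) had also been called at 3 weeks, and ATP5A1 (-1.17) had not. Scaled to ribosomal protein genes, ATP5G2, ATP5G3 and ATP5A1 were at 0.063, 0.59 and 0.57 instead. NDUFA4L2, at -0.54, was no longer past the limit. The spread of the members' differences was 0.83 (SD over 64 genes) at 6 months against E18, 0.55 at 6 months against 3 weeks, 0.79 at 3 weeks against E18 and 0.28 at E18 against E14.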

How the data were processed

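RNA from 4 whole-testis samples was sequenced, 1 library per stage, and groups follow the age label. The deposited values are RPKM per gene entry, made by the authors; the aligner TopHat2 and the build mm10 come per the submitters' processing notes. Which program counted reads, with which annotation, and how strand and multiply mapped reads were handled is not given in the sources used here; the library kit is directional per the labels' protocols. Reads were recovered from the steps between RPKM values: whole reads and 1 model length were found for 99.9966% of 59564 entries above 0 in all libraries (relative tolerance 1e-08, lengths up to 200000 bases). The scaling totals were 38903334 reads at E14, 34228140 at E18, 33952471 after 3 weeks and 35801602 after 6 months, so 3 reads in 1 kb correspond to 0.0771, 0.0876, 0.0884 and 0.0838 RPKM. The smallest fitting reads and length were taken for each entry. The recovery step was tested on simulated data for reads relative to length. That test cannot show whether both are too small by the same factor. A count model was not fitted, since each stage has 1 library.

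Differences used a pseudocount of 1, which understates changes of low genes. Positions and overlaps came from the GENCODE annotation of GRCm38, copies from blastn 2.17.0, and promoters from RefSeq (GRCm38.p6). Python 3.11.15, numpy 2.4.6, pandas 2.3.3, scipy 1.17.1 and matplotlib 3.10.9 were used. Named genes were all members past 2-fold (or the 6 largest per direction beyond 10), the 3 highest of each complex per stage, all SDH, subunit c, NDUFA4-family and X-linked members, those below 1 RPKM throughout, and up to 2 genes per direction of related lists; NDUFV1, UQCRFS1 and others named for their place in a complex were chosen after their values were seen. The values of 1 complex I member are not reported here, though it is in the counts, sums and medians. Members and lists were chosen with earlier results of these data known, and the NRF1 and YY1 motifs were shortened after longer forms had been searched. Results were recomputed with a minimum of 5 RPKM, without any filter, with a pseudocount of 0.1, with a limit of 4-fold, under 5 rescalings, over annotated symbols alone, and for 2 sets added later.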

Additional observations from a re-analysis of the deposited data

How the results depend on the processing

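With 1 library per stage no alternative carries a p-value, and each value below is a member count or a median. A rescaling moves all entries together, so medians of all entries are given first. The order is equal sum, median of ratios, ribosomal protein genes, protein-coding genes and 200 highest entries left out. At 3 weeks against E18 these medians were 0.63, 0.23, 1.06, 0.20 and -0.17. At 6 months against 3 weeks they were -0.39, 0.12, 0.049, -0.41 and -0.13. At 6 months against E18 they were 0.32, 0.49, 1.26, -0.21 and -0.32. Of the comparisons of counts and medians with the deposited scaling, 84 stayed close to the reported value and 56 moved; of those for single genes 123 stayed, 34 moved and 5 changed sign. No paired analysis was possible because each stage has 1 library. No library could be left out within a stage for the same reason. With a pseudocount of 0.1, 4 members were lower at 6 months against 3 weeks and 8 at 6 months against E18. At a limit of 4-fold, 0 were higher at E18 against E14, 1 was higher and 0 lower at 3 weeks against E18, 0 were higher and 0 lower at 6 months against 3 weeks, and 0 were higher and 1 lower at 6 months against E18. Rescaled to an equal sum, 13 were higher at 3 weeks against E18, 3 lower at 6 months against 3 weeks, and 11 higher and 3 lower at 6 months against E18. Rescaled by the median of ratios, 3 were higher and 8 lower at 3 weeks against E18, 10 higher and 0 lower at 6 months against 3 weeks, and 11 higher and 3 lower at 6 months against E18, with medians of -0.070 (E18 against E14), -0.20, 0.49 and 0.25. Rescaled to ribosomal protein genes, 42 were higher and 0 lower at 3 weeks against E18, 9 and 0 at 6 months against 3 weeks, and 53 and 0 at 6 months against E18, with medians of -0.13 (E18 against E14), 1.22, 0.41 and 1.55. Under that scaling alone 5 called differences changed sign: ATP5G3 (0.023) and NDUFA4 (0.040) at 3 weeks against E18, and ATP5A1 (0.57), ATP5G2 (0.063) and ATP5G3 (0.59) at 6 months against E18. Rescaled over protein-coding genes, 2 were higher and 10 lower at 3 weeks against E18, 1 and 5 at 6 months against 3 weeks, and 3 and 18 at 6 months against E18, with medians of 0.0086 (E18 against E14), -0.28 (3 weeks against E18) and -0.55 (6 months against E18). Rescaled without the 200 highest entries, 1 was higher and 22 lower at 3 weeks against E18 and 2 and 22 at 6 months against E18, 4 were higher at 6 months against 3 weeks, and medians were -0.62, 0.10 (6 months against 3 weeks) and -0.63. Among the 31 members without copy or overlap, an alternative chosen after seeing the data, 0 were higher at E18 against E14, 3 higher and 2 lower at 3 weeks against E18, 0 higher at 6 months against 3 weeks, and 4 higher and 2 lower at 6 months against E18, a smaller set by construction. Leaving E14 out of the filter, also chosen after seeing the data, moved none of the counts or medians. Other causes were not tested.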

Other observations

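In the enzymes that feed the respiratory chain, 2 named genes, PDHA2 and SUCLA2, differed at 3 weeks against E18 by 4.77 and 3.02 on the log2 scale. Of 18 measured genes of pyruvate oxidation and the citric acid cycle, 6 were higher and 2 lower at 3 weeks against E18 (33.3% and 11.1%). Beside these stood 24.1% and 13.2% of protein-coding symbols, and 32.0% and 10.5% of all entries. Without the 200 highest entries in the scaling, 2 were higher and 7 lower. PDHA2, the autosomal testis form of the pyruvate dehydrogenase alpha subunit, measured 0.033 RPKM at E14, 0.137 at E18, 29.9 after 3 weeks and 26.4 after 6 months. PDHA1, the X-linked somatic form, measured 11.2, 15.3, 3.34 and 1.04 RPKM, so the pair was reversed in order between E18 and 3 weeks. SUCLA2, a subunit of the ATP-forming succinyl-CoA synthetase, measured 3.46, 4.34, 42.4 and 37.0 RPKM. IDH3G, an X-linked subunit of isocitrate dehydrogenase, measured 5.36, 6.36, 2.42 and 1.77 RPKM. At 6 months against 3 weeks 0 of the 18 were higher and 3 lower, beside 9.54% and 7.87% of protein-coding symbols.

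The carriers that exchange ATP and ADP across the inner membrane also differed between forms. Of 4 nucleotide and phosphate carriers, 1 was higher and 2 lower at 3 weeks against E18. Among protein-coding symbols 24.1% were higher and 13.2% lower. SLC25A31, the germ cell form, measured 0.036 RPKM at E14, 0.687 at E18, 5.35 after 3 weeks and 2.15 after 6 months. SLC25A4 measured 24.0, 26.3, 6.11 and 3.61 RPKM, and SLC25A5 measured 20.9, 20.5, 7.21 and 4.99. SLC25A4 and SLC25A5 were still the higher ones at 3 weeks.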
